A study of Bos taurus with 15 samples.

Results

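The 4 genes described here were among those whose mRNA fell furthest in the mammary gland of dairy cows 12 h after a single injection of dexamethasone (DEX), a synthetic glucocorticoid. They are listed in the deposited table as ENSBTAG00000020527, ENSBTAG00000018071, ENSBTAG00000004207 and ENSBTAG00000006835, and they are 4 of 24616 Ensembl identifiers. Of these, 13525 had a read in the cows that completed the study. The genes were chosen on their change between 0 h and 12 h in those cows, so that this change is described below without a test. The table does not pair identifiers with names, and 0 identifiers could be matched to a symbol in the annotation table used here, so that the genes are given by identifier and nothing is said of what they encode.

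Mammary tissue was taken by needle biopsy from 4 non-pregnant Holstein cows in their second lactation (on average 55 days in milk, range 40 to 64), all given 40 mg of DEX after the 0 h biopsy, and from the same animals 12, 24 and 72 h later. There was no untreated group, and the 0 h biopsy of each cow was its baseline. All cows received ampicillin over the biopsy period and a local anaesthetic at the biopsy. A new gland of the udder was used at each time point, in the same order in every cow (gland 1 first and gland 4 last), so that time after DEX and the gland sampled cannot be told apart. For cows 2, 3 and 4 the series is complete at 4 time points, whereas cow 1 was sampled at the earlier 3 only. Cow 1 is taken here to be the animal that stopped ruminating and left the study, because it alone lacks a 72 h library.

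The libraries were of the 3′ tag type (QuantSeq), in which a transcript is read from its end, so that longer transcripts do not gather more reads and levels of different genes can be set beside each other. Values are normalized counts, that is, reads scaled to the total of the library (CPM) and then multiplied by a scaling factor of that library. These factors ran from 0.782 (cow 4 at 72 h) to 1.255 (cow 1 at 0 h). The values step in units of 1 read, which allowed the read numbers to be worked back. The libraries held 1804120 to 6228132 reads on genes. The shallowest was cow 4 at 0 h, where 3 reads, the upper limit that a count of 0 allows, were worth 1.737 normalized counts.

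Glucocorticoids enter the cell and bind the glucocorticoid receptor, a transcription factor of the nuclear receptor family that raises the transcription of some genes by binding to DNA and lowers that of others, in part by interfering with other transcription factors. In the lactating mammary gland, glucocorticoids act with prolactin on the expression of milk protein genes, and a large dose in a lactating cow is known to lower milk yield for a short time. DEX is a long-acting agonist of this receptor that has little mineralocorticoid activity. In a biopsy of whole tissue, fewer cells of a type and less RNA per cell cannot be told apart.

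ENSBTAG00000020527 was by far the most abundant of the 4 genes. It had 1479 normalized counts in cow 1, 1618 in cow 2, 2039 in cow 3 and 1436 in cow 4 at 0 h, from 2480 to 7373 reads in cows 2 to 4. At 12 h it had 241, 307, 237 and 204 normalized counts in cows 1 to 4. At 24 h it had 404, 1164, 581 and 597 normalized counts in the same order. All 4 cows were thus low at 12 h and higher again at 24 h, with cow 2 well above the others at 24 h and cow 1 below them. At 72 h it had 2236 normalized counts in cow 2, 2736 in cow 3 and 1112 in cow 4. In normalized counts, cows 2 and 3 thus exceeded and cow 4 fell short of their own 0 h level. The shortfall of cow 4 depends on its scaling factors, 1.044 at 0 h and 0.782 at 72 h. Its share of all reads was 0.137% at 0 h and 0.142% at 72 h.

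The size of this gene's response can also be read without the scaling factors, from its place within each library and its share of the reads. ENSBTAG00000020527 ranked between 24 and 31 among all genes of the library at 0 h and dropped to between 109 and 176 at 12 h. It ranked between 41 and 73 at 24 h and between 22 and 32 at 72 h. It took 0.16% of all reads in cow 2, 0.195% in cow 3 and 0.137% in cow 4 at 0 h, and 0.0308%, 0.0232% and 0.0194% at 12 h. In the same order the shares were 0.102%, 0.0608% and 0.0549% at 24 h, and 0.232%, 0.311% and 0.142% at 72 h. Of the 35 genes with a mean of 1000 or more normalized counts at 0 h in cows 2 to 4, it had the largest fall at 12 h, with a log2 change of -2.77 against -1.45 for the gene next to it. This is the contrast the gene was chosen on.

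ENSBTAG00000004207 was the second gene by abundance at 0 h, with 54.7 normalized counts in cow 1, 47.2 in cow 2, 49.3 in cow 3 and 63.1 in cow 4. At 12 h the values were 11.6, 6.61, 9.03 and 8.82 normalized counts in cows 1 to 4, from 30 to 63 reads. At 24 h they were 15.6, 19.6, 26.6 and 15.9 normalized counts. The coefficient of variation over cows 2 to 4 was lowest before DEX (16.2%) and at 12 h (16.4%), while the 24 h libraries gave 26.3% and the 72 h libraries 20.4%. In normalized counts cow 1 was the highest cow at 12 h but the lowest at 24 h. At 24 h its share of all reads (0.00193%) was above that of cow 4 (0.00146%). At 72 h this gene had 36.7 normalized counts in cow 2, 54.6 in cow 3 and 42.9 in cow 4. Only cow 3 exceeded its own 0 h level, within counting error.

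By coefficient of variation over cows 2 to 4, ENSBTAG00000006835 varied most of the 4 genes at 0, 24 and 72 h. At 12 h ENSBTAG00000018071 varied most (65.4% against 29.0%). At 0 h ENSBTAG00000006835 had 2.05 normalized counts in cow 1, 18.0 in cow 2, 35.2 in cow 3 and 13.3 in cow 4, from 8, 82, 117 and 23 reads. At 12 h it had 0.552, 3.96, 2.26 and 2.81 normalized counts in cows 1 to 4, from 3, 18, 11 and 14 reads. Cow 1 was the lowest cow at all 3 of its time points. At 24 h it had 1.68, 5.32, 9.59 and 2.97 normalized counts, and at 72 h 26.5 in cow 2, 14.1 in cow 3 and 8.78 in cow 4. Cow 3, the highest at 0 h, was the lowest of cows 2 to 4 at 12 h, and cow 2 was the highest at 72 h.

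ENSBTAG00000018071 had the lowest mean of the 4 genes over cows 2 to 4 at each time point, and its values rest on few reads. It had 8.95 normalized counts in cow 1, 9.66 in cow 2, 7.22 in cow 3 and 11.6 in cow 4 at 0 h. At 12 h it had 1.66, 1.98, 0.821 and 0.601 normalized counts in cows 1 to 4, from 9, 9, 4 and 3 reads. At 24 h it had 2.68, 3.67, 2.13 and 3.78 normalized counts, from 10 to 20 reads. The cows were close together at 24 h and further apart at 12 h, where counts were lowest. At 72 h it had 9.38 normalized counts in cow 2, 5.42 in cow 3 and 4.60 in cow 4. All 3 cows were below their 0 h level, cows 2 and 3 within counting error.

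**Figure D1:**
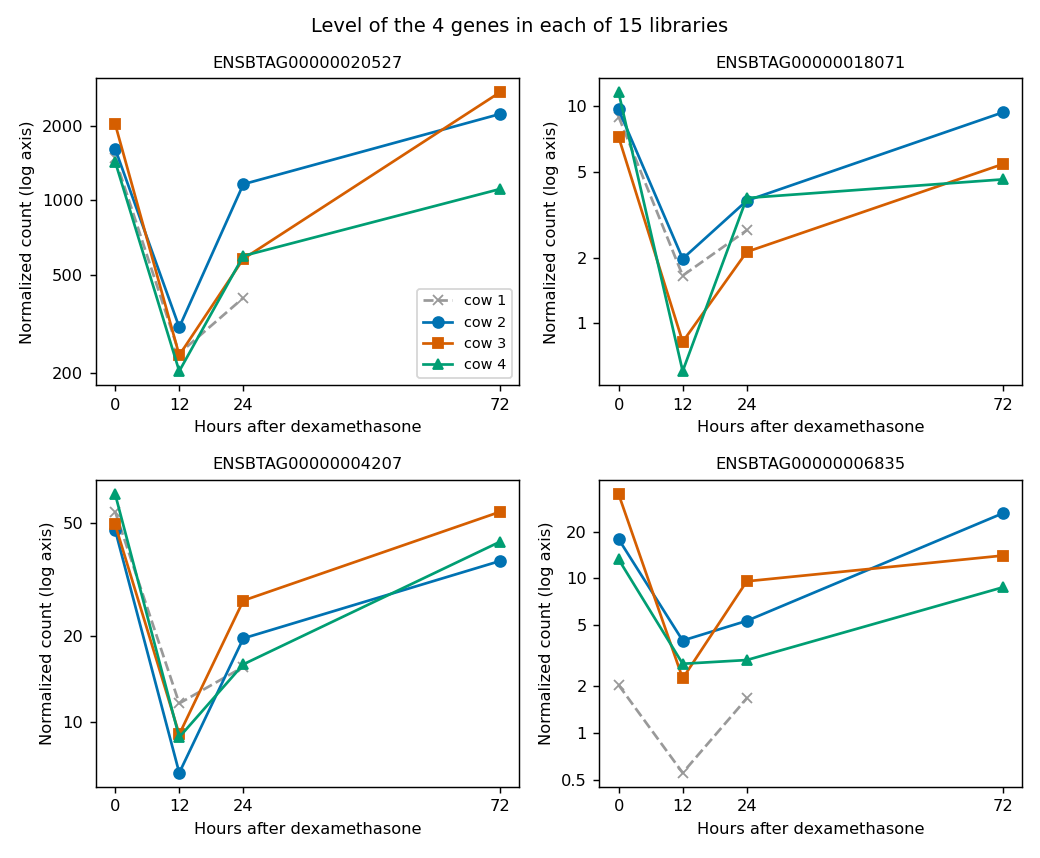
Normalized counts (log axis) of each gene against hours after DEX, with 1 line for each cow; cow 1 (dashed) has no 72 h library. Each gene was lowest at 12 h in all 4 cows, and ENSBTAG00000006835 in cow 1 lay below the other cows at 0, 12 and 24 h.

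The genes were chosen on the size of their fall at 12 h, so that falls of like size follow from the choice. In cows 2 to 4 the mean level of ENSBTAG00000020527 went from 1698 ± 309 (SD over n = 3 cows) normalized counts at 0 h to 249 ± 52.7 at 12 h, and that of ENSBTAG00000004207 from 53.2 ± 8.63 to 8.15 ± 1.34. The mean of ENSBTAG00000006835 went from 22.2 ± 11.5 to 3.01 ± 0.872, and that of ENSBTAG00000018071 from 9.48 ± 2.18 to 1.13 ± 0.742. The 12 h means were therefore between 12% and 15.3% of the 0 h means. In abundance the genes differ by more than 100 to 1. On the log2(normalized count + 0.5) scale the fitted changes were -2.77 (standard error 0.30) for ENSBTAG00000020527, -2.68 (0.39) for ENSBTAG00000018071, -2.63 (0.22) for ENSBTAG00000004207 and -2.603 (0.42) for ENSBTAG00000006835. This scale understates the change of low genes.

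Among the 981 genes with a mean of 4 or more normalized counts that were lower at 12 h in all 3 cows, the 4 genes took places 2 to 5 by the size of the fall. The gene in place 1, which is not among them, had a log2 change of -3.65 and a mean of 10.8 normalized counts at 0 h, and the gene in place 6 had a log2 change of -2.51. The 12 h values of cows 2 to 4 lay below all their 0 h values for 4 of the 4 genes, while 7.72% of all genes tested were lower without overlap in this way. Since the genes were chosen on this contrast, nothing is read from that count.

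Cow 1 did not enter the choice of the genes, and its 12 h library gives a separate look at the same change in a single animal. ENSBTAG00000020527 stood at 16.3% of its 0 h level in cow 1 at 12 h (95% counting interval 15.3% to 17.3%), which was between the 11.6% of cow 3 and the 19.0% of cow 2. ENSBTAG00000004207 stood at 21.2% in cow 1 (15.7% to 28.2%), slightly above the 13.98% to 18.3% of the other cows. ENSBTAG00000018071 stood at 18.5% in cow 1 (7.82% to 39.3%), within the 5.19% to 20.5% of the others. All 3 of these genes were therefore lower at 12 h than at 0 h in cow 1 by more than counting error. For ENSBTAG00000006835 the level was 27.0% of that at 0 h, but with 3 reads at 12 h and 8 at 0 h the interval runs from 4.61% to 112%, so that a fall in cow 1 was not detectable at this depth. These intervals are exact binomial intervals for the ratio of the reads and leave out all error but that of counting. They take the scaling factors of the libraries as exact. The sources used here do not say that molecular identifiers were counted, and without them 2 reads can stem from 1 molecule.

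The libraries at 12 h can be compared only against counting error, as each cow gave 1 biopsy at a time point and the variation between biopsies or glands of a cow was not measured. ENSBTAG00000018071 in cow 4 stood at 5.19% of its 0 h level, from 3 reads against 20, with an interval of 0.988% to 17.5% that overlaps those of the other cows. By contrast, the intervals of ENSBTAG00000020527 were narrow, and that of cow 3 (10.9% to 12.4%) did not meet that of cow 2 (17.9% to 20.1%). ENSBTAG00000006835 fell to 6.41% in cow 3 (3.12% to 11.9%) but stood at 22.0% in cow 2 (12.4% to 37.0%).

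**Figure D2:**
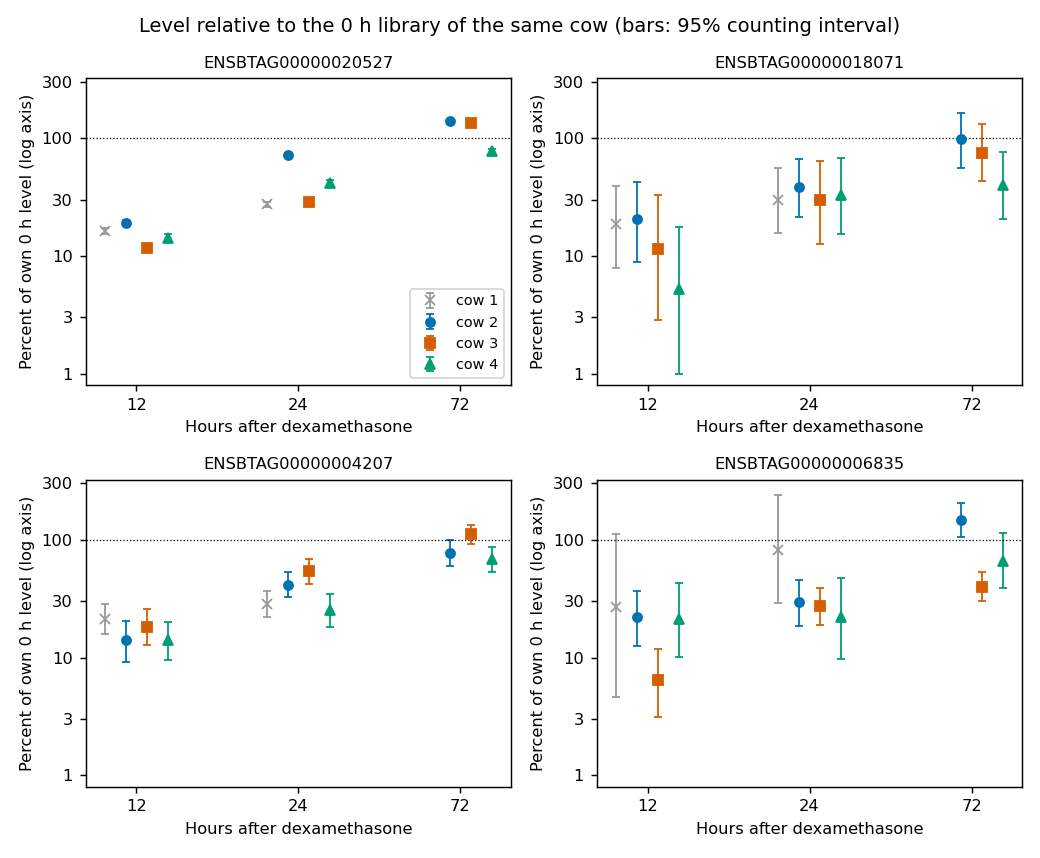
Level of each gene at 12, 24 and 72 h as a percent of the 0 h level of the same cow (log axis), with 95% counting intervals as bars. The level at 12 h was between 5.19% and 27.0% in the 4 cows, and the dotted line marks 100%.

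By 24 h, levels had begun to come back but were still low. In cows 2 to 4 the 24 h mean of ENSBTAG00000020527 was 780.4 ± 332 (SD over n = 3 cows) normalized counts, or 46.0% of the 0 h mean. It was 20.7 ± 5.45 (39.0%) for ENSBTAG00000004207, 3.19 ± 0.92 (33.7%) for ENSBTAG00000018071 and 5.96 ± 3.36 (26.9%) for ENSBTAG00000006835. The fitted log2 changes from 0 h were -1.18 (95% interval -1.82 to -0.55), -1.36 (-1.81 to -0.90), -1.45 (-2.26 to -0.63) and -1.83 (-2.72 to -0.93) in that order. All 4 genes were lower at 24 h than at 0 h in 3 of 3 cows and without overlap between the groups, which 7.05% of all genes tested were. This comparison shares its 0 h libraries with the one that chose the genes and is not independent of it, and no p is given.

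How far each gene came back between 12 h and 24 h is given by cow, and differences between the genes were not tested. ENSBTAG00000020527 rose from 12 h to 24 h by 3.79 times in cow 2, 2.45 times in cow 3 and 2.93 times in cow 4, and had regained 80.2%, 41.7% and 55.0% of its 12 h fall on the log2 scale. On the linear scale of normalized counts these shares were 65.3%, 19.1% and 31.9%, and the other genes were also lower on that scale. ENSBTAG00000004207 rose by 2.97, 2.95 and 1.80 times and had regained 54.7%, 63.3% and 29.5%. For ENSBTAG00000018071 the values were 1.85, 2.598 and 6.28 times, and 36.8%, 39.1% and 56.6%. Its rise was within counting error in cow 2 (0.806 to 4.62) and cow 3 (0.749 to 11.3), but not in cow 4 (1.75 to 34.1). On the linear scale the shares were 32.1%, 43.7% and 13.1% for ENSBTAG00000004207 and 21.97%, 20.5% and 28.9% for ENSBTAG00000018071. ENSBTAG00000020527, ENSBTAG00000004207 and ENSBTAG00000018071 were higher at 24 h than at 12 h without overlap between the groups, which 7.53% of all genes tested were.

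By the fitted change over cows 2 to 4, ENSBTAG00000006835 rose least between 12 h and 24 h (log2 change 0.77, against 1.23 to 1.59 for the other genes), but the cows differed. Without cow 4 its change was 1.13 and exceeded that of ENSBTAG00000018071 (0.871), and without cow 3 it was 0.225. Its level at 24 h was 1.34 times that at 12 h in cow 2 (counting interval 0.72 to 2.57), 4.25 times in cow 3 (2.16 to 9.11) and 1.06 times in cow 4 (0.434 to 2.51), so that only in cow 3 was it higher at 24 h by more than counting error. It had regained 18.7% of its fall on the log2 scale in cow 2, 50.7% in cow 3 and 3.32% in cow 4, or 9.66%, 22.3% and 1.53% on the linear scale. Of cows 2 to 4 none was ahead for all 4 genes, as cow 2 had regained most of the fall of ENSBTAG00000020527, cow 3 most of that of ENSBTAG00000004207 and ENSBTAG00000006835, and cow 4 most of that of ENSBTAG00000018071. The 12 h libraries helped to choose the genes, and low values there enlarge any later rise, so that these numbers are given as a description.

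In normalized counts, the return of cow 1 by 24 h was small for 3 of the genes. Its size depends on the scaling, as the factor of cow 1 was 1.255 at 0 h, 1.067 at 12 h and 0.808 at 24 h. ENSBTAG00000020527 rose 1.68-fold from 12 h to 24 h (counting interval 1.57 to 1.80), less than in cows 2 to 4, and stood at 27.3% of its 0 h level. The share of this gene in the reads of cow 1 was 0.118% at 0 h, 0.0226% at 12 h and 0.0499% at 24 h. ENSBTAG00000004207 was 1.34 times its 12 h level (0.966 to 1.88) and ENSBTAG00000018071 was 1.62 times (0.673 to 4.16). Both were within counting error when the scaling factors are taken as exact. By share of all reads, ENSBTAG00000004207 went from 0.00109% to 0.00193%, a rise for which no counting interval was computed. ENSBTAG00000006835 stood at 81.9% of its 0 h level at 24 h, but from 10 reads against 8, with an interval of 29.1% to 239%. Cow 1 was a single animal, and whether its return differed from that of the other cows was not tested.

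The change between 24 h and 72 h is the one difference between time points whose means come from no library on which the genes were chosen, and it was tested. The fit took its error from all 12 libraries of cows 2 to 4, including those at 0 h and 12 h. With the 24 h and 72 h libraries alone the adjusted p in limma was 0.024 for ENSBTAG00000020527, 0.0109 for ENSBTAG00000004207, 0.0691 for ENSBTAG00000006835 and 0.267 for ENSBTAG00000018071, so that the same genes passed the threshold. In cows 2 to 4 both ENSBTAG00000020527 and ENSBTAG00000004207 rose. ENSBTAG00000020527 went from 780.4 ± 332 (SD over n = 3 cows) normalized counts to 2028 ± 832, a log2 change of 1.36 with a standard error of 0.30. The adjusted p in limma was 0.0159, and all 3 cows were higher at 72 h. The rise was 1.92-fold in cow 2, 4.71-fold in cow 3 and 1.86-fold in cow 4. Cow 3 thus rose more than the others, and the 72 h value of cow 4 (1112) lay below the 24 h value of cow 2 (1164), so that the groups overlapped. Without cow 3 the log2 change was 0.92 and did not pass the threshold (adjusted p = 0.288 in limma), nor did it without cow 2 (1.57, adjusted p = 0.0861 in limma).

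ENSBTAG00000004207 went from 20.7 ± 5.45 (SD over n = 3 cows) normalized counts at 24 h to 44.7 ± 9.11 at 72 h, a log2 change of 1.10 with a standard error of 0.22 (limma, adjusted p = 0.00692). It rose 1.87-fold in cow 2, 2.05-fold in cow 3 and 2.69-fold in cow 4, and the groups did not overlap. Of all genes tested, 7.94% were higher at 72 h than at 24 h without overlap, and among the 4 genes ENSBTAG00000004207 and ENSBTAG00000018071 were. The cows agreed more closely on the size of this rise than on that of ENSBTAG00000020527. Without cow 2 or without cow 4 the adjusted p in limma was 0.0772 and 0.15.

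The other 2 genes did not pass the threshold between 24 h and 72 h. ENSBTAG00000006835 had 5.96 ± 3.36 (SD over n = 3 cows) normalized counts at 24 h and 16.5 ± 9.09 at 72 h, a log2 change of 1.39 (95% interval 0.49 to 2.28, adjusted p = 0.089 in limma). It was 4.98 times as high in cow 2, 1.47 times in cow 3 and 2.96 times in cow 4. With cow as a fixed term, which takes out the differences in level between cows, the adjusted p in limma was 0.0222, and it was 0.00401 with edgeR and 0.00394 with DESeq2. ENSBTAG00000018071 had 3.19 ± 0.92 normalized counts at 24 h and 6.46 ± 2.55 at 72 h, a log2 change of 0.89 (95% interval 0.08 to 1.70, adjusted p = 0.28 in limma). It was 2.56 times as high at 72 h in cow 2, 2.54 times in cow 3 and 1.22 times in cow 4, the last within counting error (0.596 to 2.57).

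These values were read against all genes. Of the 13525 genes tested between 24 h and 72 h, 482 (3.56%) had an adjusted p under 0.05 in limma, 159 of them (1.18% of the genes tested) higher at 72 h, and 2 of the 4 genes were among these 159. The median log2 change of the 4 genes was 1.23, and that of the 4795 genes with a mean of 4 or more normalized counts was -0.0072. Among those 4795 genes, ENSBTAG00000006835 took place 56 by the size of the rise, ENSBTAG00000020527 place 60, ENSBTAG00000004207 place 116 and ENSBTAG00000018071 place 215. The 4 genes were chosen for a fall, and their 24 h means were still 26.9% to 46.0% of those at 0 h. The genes they are set against were not limited to fallen ones, so a rise beyond that of other fallen genes is not shown. The 2 of the 4 genes that were not called were also higher at 72 h, without passing the threshold. Genes called between these time points were mostly lower at 72 h, with 323 lower and 159 higher. This split depends on scaling: the higher genes were 33% of those called here, 43.3% after quantile normalization and 58.6% when the 20 most abundant genes were left out of the library totals, where the median change moved to 0.166. The rises of the 4 genes were 1.54, 1.05, 1.28 and 1.56 under the last of these, in the order ENSBTAG00000020527, ENSBTAG00000018071, ENSBTAG00000004207 and ENSBTAG00000006835, so each remained above the shifted median.

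**Figure D3:**
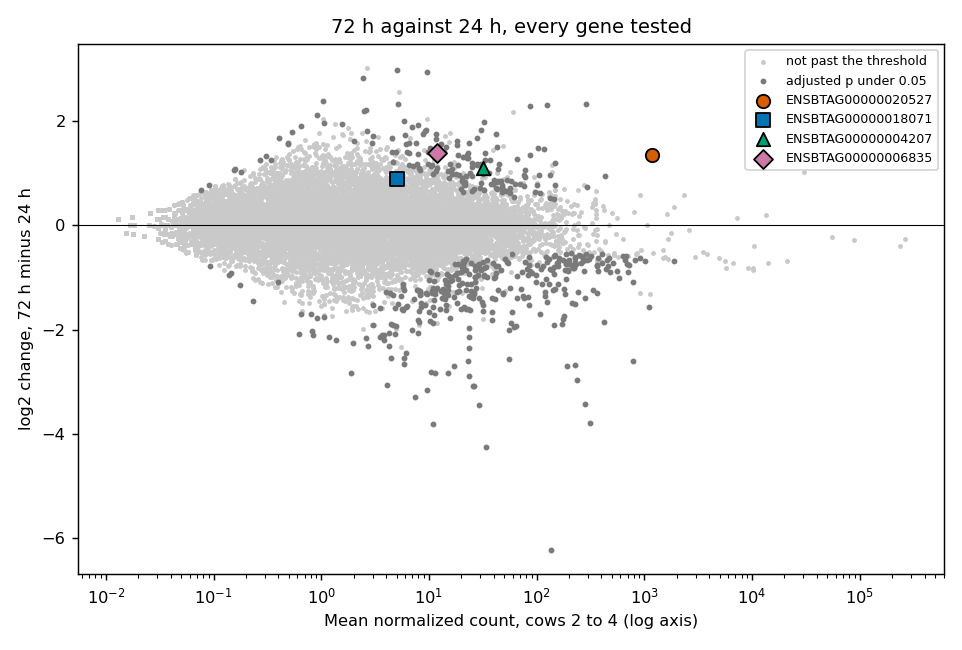
Log2 change between 24 h and 72 h (72 h minus 24 h) of every gene tested, against its mean normalized count in cows 2 to 4 (log axis), with the 4 genes as large symbols and genes past the threshold in dark grey. The 4 genes lie between 0.89 and 1.39, and ENSBTAG00000020527 stands far to the right of the others by abundance.

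At 72 h the levels ranged from 39.7% to 147% of those at 0 h in the same cow. In normalized counts ENSBTAG00000018071 was below its 0 h level in all 3 cows, though beyond counting error in cow 4 only. Each of the other genes was above it in at least 1 cow and below it in at least 1, which for ENSBTAG00000004207 was within counting error in the cow above. ENSBTAG00000020527 was at 138% of its 0 h level in cow 2 (counting interval 133% to 143%), 134% in cow 3 (130.5% to 138%) and 77.4% in cow 4 (73.8% to 81.2%). The interval of cow 4 did not meet those of cows 2 and 3, which sets these libraries apart beyond counting error only. By share of all reads, which leaves the scaling factors out, cow 4 was higher at 72 h (0.142%) than at 0 h (0.137%). The fitted log2 change of 0.17 (95% interval -0.46 to 0.81) lies between the cows. ENSBTAG00000004207 was at 77.7% of its 0 h level in cow 2 (60.1% to 99.9%), 111% in cow 3 (91.7% to 134%) and 67.9% in cow 4 (53.6% to 86.5%). Its fitted log2 change was -0.26 (95% interval -0.71 to 0.20).

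ENSBTAG00000006835 was at 147% of its 0 h level in cow 2 (105% to 206%), 40.0% in cow 3 (30.1% to 53.1%) and 66.0% in cow 4 (38.8% to 115%), with a fitted log2 change of -0.44 (95% interval -1.33 to 0.45). Cow 2 was thus above and cow 3 below its own baseline by more than counting error. With the 3 libraries of cow 1 added, the fitted change of this gene was 0.27. Cow 1 enters that fit at 0 h, where it was the lowest cow, and not at 72 h. ENSBTAG00000018071 was at 97.1% in cow 2 (56.0% to 164%), 75.0% in cow 3 (43.4% to 132%) and 39.7% in cow 4 (20.7% to 76.7%). Its fitted log2 change was -0.56 (95% interval -1.37 to 0.26). The 0 h libraries helped to choose the genes, and high values there enlarge a fall, so that these values and intervals are given as a description, with no p and no call on whether the levels had returned. In 0 of the 4 genes did the 72 h values lie wholly below the 0 h values, as they did for 3.84% of all genes tested.

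For each gene the fitted level was therefore lowest at 12 h and next lowest at 24 h, and the level at 72 h was above that at 0 h in ENSBTAG00000020527 only. As a description, the 0 h and 72 h values of cows 2 to 4 overlapped in each of the 4 genes, and those at 12 h and 24 h overlapped in ENSBTAG00000006835. The residual SD between cows on the log2 scale was 0.481 for ENSBTAG00000020527 and 0.667 for ENSBTAG00000006835. In the 100 genes nearest to each in mean level, the median SD was 0.197 and 0.342 and the 90th percentile 0.45 and 0.541, so that both genes lay above the 90th percentile of genes of their abundance. ENSBTAG00000018071 (0.467 against a median of 0.461 and a 90th percentile of 0.697) and ENSBTAG00000004207 (0.282 against 0.264 and 0.427) lay slightly above the median and below the 90th percentile.

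**Figure D4:**
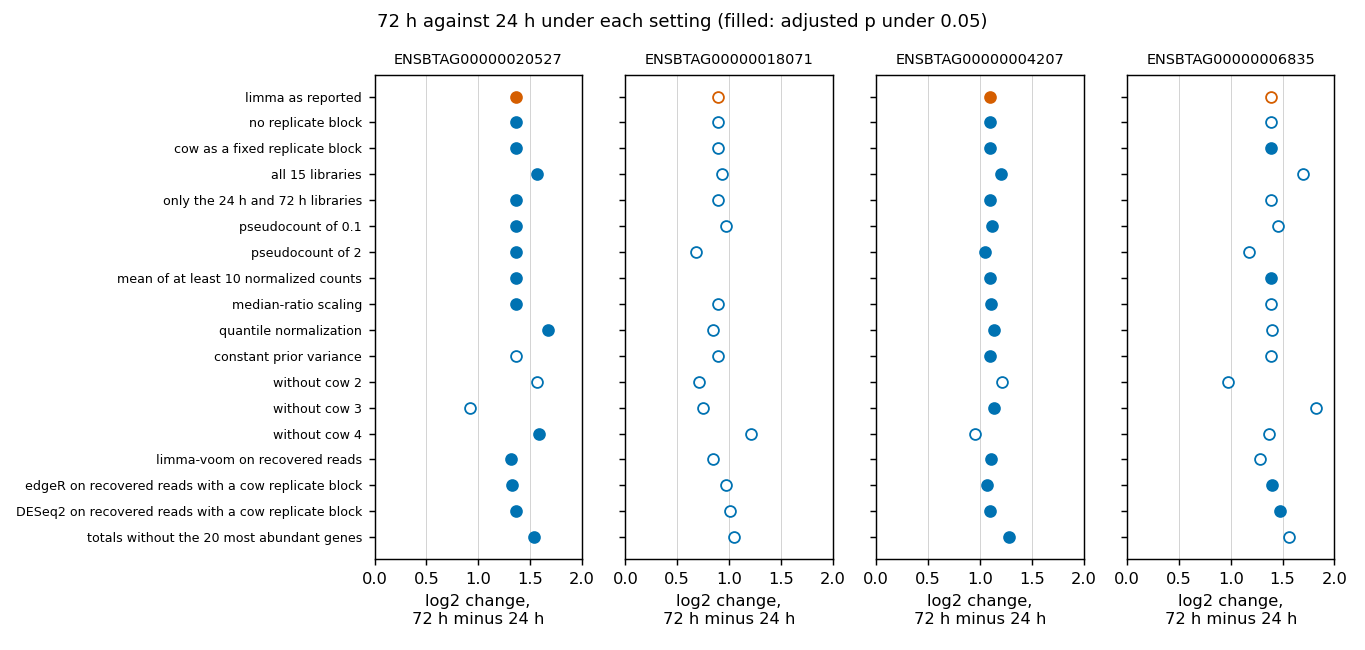
Log2 change of each gene between 24 h and 72 h (72 h minus 24 h) under each setting of the test, filled where the adjusted p was under 0.05, with the values reported here in orange. All values are above 0, and for ENSBTAG00000018071, which is too low for the filter on a mean of 10, no setting passed the threshold.

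Other genes followed a similar course over the 15 libraries. Pearson's correlation of log2(normalized count + 0.5) was computed between each of the 4 genes and the other genes with a mean of 4 or more normalized counts. The gene most like ENSBTAG00000018071 was ENSBTAG00000011613 (r = 0.956 over 15 libraries), with 35.2 ± 9.86 (SD over n = 3 cows) normalized counts before DEX and 12.1 ± 2.21, 21.6 ± 2.45 and 26.6 ± 2.84 after 12, 24 and 72 h. The gene most like ENSBTAG00000020527 was ENSBTAG00000008143 (r = 0.949), which went from 51.3 ± 4.59 normalized counts to 21.7 ± 4.36 at 12 h and then to 35.4 ± 6.31 and 49.7 ± 13.3. Both fell less at 12 h than the gene they resemble. For ENSBTAG00000004207 the highest correlation was 0.949 and for ENSBTAG00000006835 it was 0.89. Among the 4 genes themselves the correlations ran from 0.644 to 0.912, the lowest being between ENSBTAG00000018071 and ENSBTAG00000006835. With the mean of each time point removed they ran from -0.29 (ENSBTAG00000018071 and ENSBTAG00000004207) to 0.433 (ENSBTAG00000020527 and ENSBTAG00000006835). The points share libraries, cows and time points, and genes chosen on the same fall must correlate, so that these values describe likeness only.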

How the data were processed

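After trimming with HTStream and alignment with STAR (version 2.6.0c in the submitters' processing notes) to build UMD3.1 of the bovine genome, the authors obtained reads for each gene. The deposited values are a signal, namely CPM times a scaling factor of the library. The scaling method is not given in the sources used here. Columns were assigned to samples by their labels, 0 columns had no sample, and 0 pairs of libraries were identical. Reads were recovered by dividing by what 1 read was worth in each library, and 100% of values were whole within 0.01.

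Differences were tested in R 4.3.3 with limma (version 3.58.1, eBayes with its trend option). The model held the time point and, through duplicateCorrelation, the within-cow correlation (0.0179). A correlation this low gives the pairing by cow little weight. Without it the adjusted p in limma for ENSBTAG00000006835 between 24 h and 72 h was 0.0991, against 0.089 with it. The study, in a limma-voom pipeline, also adjusted for within-cow correlations. The model here was fitted to log2 values, after adding 0.5, for the 12 libraries from cows 2, 3 and 4. All 13525 genes with a read in these libraries entered, with Benjamini-Hochberg adjustment over them and a threshold of 0.05, and the code was tested on simulated data. The cow numbers pair the libraries because they name the same animals, and with each time point's mean removed, libraries from 1 cow were correlated in 18 of 18 pairs, with r over 4795 genes of 0.276 at the median and at least 0.149. Only 72 h against 24 h was tested, since the means of the other pairs of time points used here share libraries with the choice of the genes. The members, lists and tests were chosen with earlier results of these data known.

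The genes named are the 4 members and, since no table gave names, the 2 genes with the highest correlation to any member among genes averaging 4 or more normalized counts. Gene lists, cell type markers and sequences, planned for the case that identifiers could be named, were not analysed here, and the tissue was not checked against markers. There were 16 alternatives planned and 1 added after seeing the data (library totals without the 20 most abundant genes). DESeq2 (version 1.42.0), edgeR (version 4.0.16) and limma-voom were run on the recovered reads of genes with at least 4 normalized counts in total over the 15 libraries, a filter chosen with earlier results known.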

Additional observations from a re-analysis of the deposited data

Results flagged for a closer look

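For each gene, the cows' values at 0 h, at 12 h and at 24 h were screened for a cow set apart from the rest. In 0 of these 12 groups of 4 cows did the gap to the nearest cow, over the range of the group, exceed Dixon's critical value. The largest such ratio was 0.746, for ENSBTAG00000020527 in cow 2 at 24 h.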

How the results depend on the processing

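Between 24 h and 72 h all 4 genes were higher at 72 h in every one of the 17 alternatives that included them. ENSBTAG00000018071 is too low for the filter on a mean of 10 and passed the threshold in 0 of 16 alternatives, with a log2 change between 0.68 and 1.21. ENSBTAG00000004207 passed in 15 of 17 and ENSBTAG00000020527 in 14 of 17. Leaving out a cow at a time gave 0.954 to 1.21 for ENSBTAG00000004207 and 0.919 to 1.59 for ENSBTAG00000020527, which also missed the threshold with a constant prior variance (1.36, adjusted p = 0.0838 in limma). ENSBTAG00000006835 passed in 4 of 17, with cow as a fixed replicate block (1.39), with the filter on a mean of 10 (1.39, adjusted p = 0.0382 in limma), with edgeR (1.40) and with DESeq2 (1.47), and over all 17 its adjusted p ran from 0.00394 to 0.577. The fixed replicate block changed no other call of the 4 genes.

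The number of genes called between 24 h and 72 h was 103 to 176 when a cow was left out, 264 with a constant prior variance and 905 with edgeR. The number higher at 72 h was 33 to 45 when a cow was left out, 82 with a constant prior variance, 246 with all 15 libraries, 340 with edgeR, 253 with DESeq2 and 302 with totals without the 20 most abundant genes. Of 252 changes of the 4 genes between other time points under the alternatives, 246 moved by less than 1 SD between cows. The exceptions were 6 values at 12 or 24 h, 3 of them with a pseudocount of 2, which lowers the change of low genes, and 1 change in sign is given above for ENSBTAG00000006835 with cow 1 added. Depth limits ENSBTAG00000018071 and ENSBTAG00000006835 most, with as few as 3 reads in a library.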
